A study of Mus musculus with 39 samples.

Results

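Border-associated macrophages (BAM) and microglia sorted from the mouse brain at embryonic stage E12.5 (E, days after conception) were compared gene by gene. The comparison used 6 of the 39 RNA sequencing libraries of the series, chosen by the population and stage in their labels: 3 BAM libraries and 3 microglia libraries, with every gene of the count table in view. The series covers both populations at 6 stages, E10.5, E11.5, E12.5, E14.5, E16.5 and E18.5. All embryos were of the C57Bl/6 strain from timed matings, with E0.5 set at the day of the vaginal plug, and no group carried a transgene or received a treatment according to the labels. Cells were purified by fluorescence-activated sorting. The labels used here name neither the sorting gates nor the litters. The p-values therefore measure only the spread between libraries of the same group, which may be technical in part. That spread was estimated over all 39 libraries and not from the 6 of E12.5 alone.

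Microglia are the macrophages that live within the tissue of the brain and spinal cord. Border-associated macrophages occupy the interfaces of the brain, namely the meninges, the perivascular spaces and the choroid plexus. In mice both descend from yolk sac progenitors, and in the adult they are told apart by surface receptors such as the mannose receptor MRC1 and the hyaluronan receptor LYVE1 on BAM, and the purinergic receptor P2RY12 and the membrane protein TMEM119 on microglia.

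The table lists 53379 genes, and 22061 of them had enough counts to be tested. The 3 microglia libraries held 16225222, 21226764 and 23529992 counts and the 3 BAM libraries 14237340, 22779882 and 24339829. Levels are given below in counts-per-million units (CPM) of the library total, in the order of libraries 1, 2 and 3, and were not corrected for gene length. Mitochondrial genes took 2.19 to 3.83% of the counts. The first principal component, with 58.31% of the variance of the 500 most variable genes, placed all 3 microglia libraries on one side and all 3 BAM libraries on the other. Libraries also differed within their groups. Microglia library 3 had the highest level of the microglia libraries for 267 of 360 genes that were at least 2-fold higher in BAM with a mean of at least 10 CPM, and library 2 the lowest for 239. Microglia library 2 had the highest summed level of granulocyte markers, at 72.9 CPM beside 3.02 and 7.14 in libraries 1 and 3. BAM library 1 had the highest summed level of neural markers, at 1187 CPM beside 469.5 and 405 CPM in BAM libraries 2 and 3 and 709.5 to 886 CPM in microglia.

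BAM and microglia differed in 1895 genes at a Benjamini-Hochberg adjusted p under 0.05, or 8.59% of those tested. Of these, 912 (4.13% of tested genes) were higher in BAM and 983 (4.46%) were lower. The differences are log2 values, with a positive sign for genes higher in BAM. Each is followed by a standard error, taken as the absolute difference divided by the square root of the F statistic of its test. The median difference was 0.95 among the genes called higher and -1.39 among those called lower, beside 0.00 over all tested genes. A difference of 2-fold or more was found for 424 of the genes called higher and 638 of those called lower. Differences of 8-fold or more numbered 60 and 208, and 26 and 99 of these genes had a mean of at least 10 CPM. The CPM ranges of the 3 BAM and the 3 microglia libraries did not overlap for 1850 of the 1895 called genes, and over all tested genes this held for 22.9%. Leaving out 1 library at a time gave 1391 to 1778 called genes, with 1391 without microglia library 2 and 1778 without microglia library 3. In bulk libraries, fewer cells of a type and less RNA per cell cannot be told apart.

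**Figure D1:**
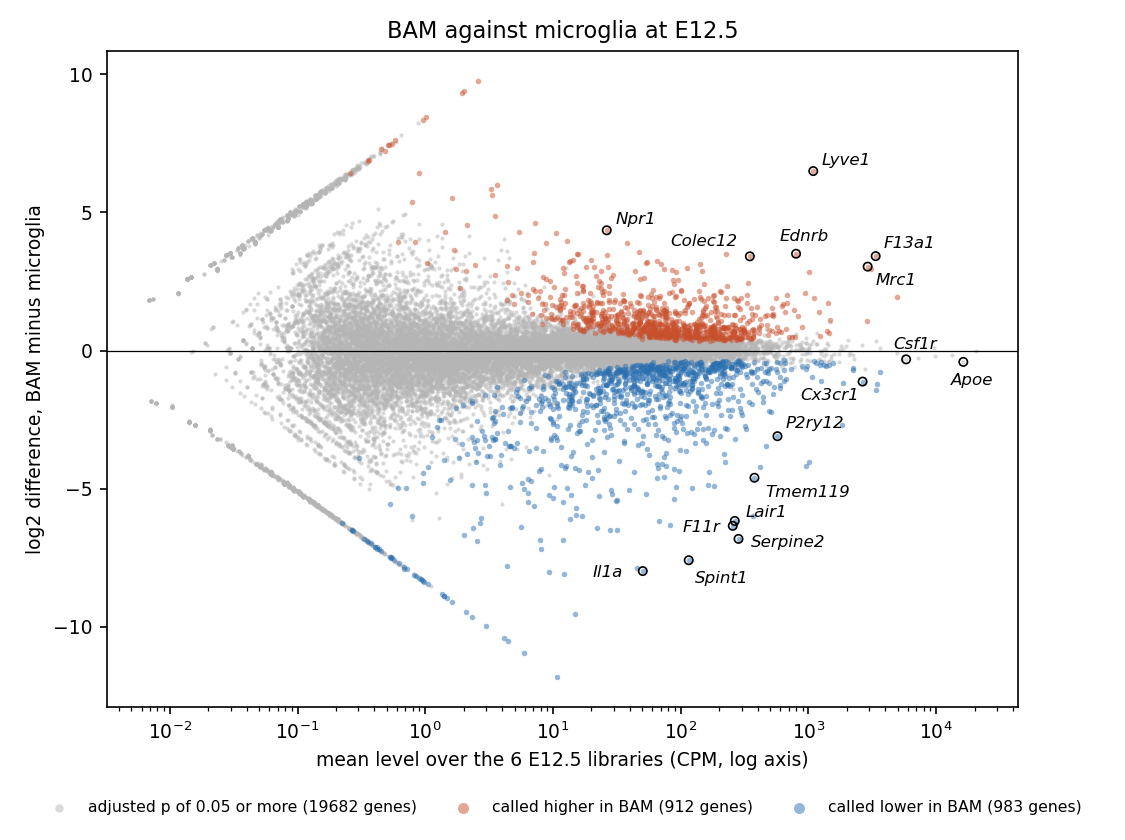
Difference between BAM and microglia at E12.5 (log2, y axis) against mean level over the 6 libraries (CPM, log axis) for the tested genes with a count in at least 1 of the 6 libraries (484 tested genes without one are not drawn). Coloured points are the 912 genes called higher in BAM and the 983 called lower; among the labelled genes, Lyve1 is at 6.50, Spint1 at -7.59 and Il1a at -7.98.

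The 15 genes with the largest rise in BAM among those at a mean of 10 CPM or more were led by Lyve1, the hyaluronan receptor (chromosome 7, 110850607 to 110863239, minus strand, GRCm38). Lyve1 was at 11.96, 3.49 and 57.5 CPM in microglia and 2032, 2265 and 2177 CPM in BAM (log2 difference 6.50 ± 0.80, adjusted p = 4.92e-07). The groups were far apart, and within microglia library 3 stood above libraries 1 and 2. Npr1, a natriuretic peptide receptor with guanylyl cyclase activity, was at 1.05, 0.989 and 5.27 CPM in microglia and 53.4, 45.5 and 52.05 CPM in BAM (log2 difference 4.36 ± 0.51, adjusted p = 7.30e-08). Cd163, the scavenger receptor for haemoglobin bound to haptoglobin, was at 0.308, 0.283 and 3.74 CPM in microglia and 36.2, 8.47 and 28.1 CPM in BAM (log2 difference 3.97 ± 0.93, adjusted p = 0.00372). The Cd163 groups did not overlap, but BAM library 2 was close to the level of microglia library 3. The lectin gene Mgl2 differed by 3.89 ± 0.62, Enpp2, which encodes the lysophosphatidic acid-producing enzyme autotaxin, by 3.58 ± 0.43, and the flagellin receptor gene Tlr5 by 3.51 ± 0.72.

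Ednrb, an endothelin receptor gene, was at 120.0, 52.1 and 222 CPM in microglia and 1535, 1527 and 1345 CPM in BAM (log2 difference 3.51 ± 0.31, adjusted p = 3.70e-10). F13a1, which encodes the A subunit of coagulation factor XIII, was at 358, 225 and 1179 CPM in microglia and 5561, 6358 and 6499 CPM in BAM (log2 difference 3.42 ± 0.47, adjusted p = 3.29e-06). Colec12, a scavenger receptor of the collectin type, was at 59.4, 32.5 and 89.9 CPM in microglia and 609.9, 623 and 673 CPM in BAM (log2 difference 3.41 ± 0.25, adjusted p = 2.57e-12). For these 3 genes microglia library 3 was again the highest of its group and remained well below every BAM library. Folr2, the folate receptor beta gene, differed by 3.46 ± 0.53, the elastic fibre gene Fbln5 by 3.50 ± 0.83 and the necroptosis effector gene Mlkl by 3.26 ± 0.54. Pf4, a chemokine known from platelets, was at 24.9, 3.77 and 85.98 CPM in microglia and 428, 443 and 383 CPM in BAM (log2 difference 3.48 ± 0.77, adjusted p = 0.00206). Bmp2, a secreted ligand of the bone morphogenetic protein family, was at 5.67, 0 and 5.53 CPM in microglia and 46.5, 36.3 and 25.6 CPM in BAM (log2 difference 3.30 ± 0.59, adjusted p = 1.37e-04). The Bmp2 call was lost when only the 6 E12.5 libraries were fitted, with an adjusted p of 0.0716. The last of the 15, the copine gene Cpne8, differed by 3.27 ± 0.70.

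The 15 largest decreases in BAM were led by Pdcd1 and Itgax, which were close to absent from the BAM libraries. Adgrg5, given below, was also very low there, at a mean of 0.0898 CPM. Pdcd1, which encodes the inhibitory receptor PD-1, was at 18.2, 30.01 and 16.1 CPM in microglia and had no count in any BAM library. Against a floor of 3 counts over the BAM group, Pdcd1 was at least 439-fold lower. Itgax, which encodes the integrin CD11c, was at 34.1, 31.2 and 23.7 CPM in microglia and 0.141, 0 and 0 CPM in BAM. The BAM value rests on 2 counts in 1 library and gives a microglia to BAM ratio of 892 with a 95% counting interval of 247 to 7371. In these 6 libraries even counts were more frequent than odd ones (8063 values of 2 beside 3410 of 1 and 2105 of 3). How the 2 reads of a pair were counted is not given in the sources used here, and if each was counted, counting intervals are too narrow and fold bounds too high.

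Il1a, which encodes the cytokine interleukin-1 alpha (chromosome 2, 129299610 to 129309972, minus strand), was at 106, 110.0 and 85.3 CPM in microglia and 0.773, 0.307 and 0.205 CPM in BAM (log2 difference -7.98 ± 0.88, adjusted p = 5.85e-08). Il1b, its neighbour on the same strand (chromosome 2, 129364570 to 129371139), was at 26.8, 156 and 89.8 CPM in microglia and 0, 0.702 and 0.329 CPM in BAM (log2 difference -7.88 ± 1.25, adjusted p = 2.94e-05). Every BAM library had less than 1 CPM of either gene, while the microglia libraries differed among themselves for Il1b, with library 2 the highest. Spint1, an inhibitor of membrane-bound serine proteases, was at 257, 291 and 142 CPM in microglia and 2.25, 0.966 and 0.616 CPM in BAM (log2 difference -7.59 ± 0.55, adjusted p = 3.74e-12). Serpine2, another serine protease inhibitor, was at 686, 558 and 442 CPM in microglia and 9.83, 2.19 and 3.66 CPM in BAM (log2 difference -6.82 ± 0.53, adjusted p = 4.22e-11). The collagen-binding inhibitory receptor gene Lair1 was at 586, 594 and 389.6 CPM in microglia and 7.30, 7.11 and 7.23 CPM in BAM (log2 difference -6.17 ± 0.31, adjusted p = 4.99e-16). Lair1 had the smallest standard error of the 15, with nearly equal levels in the 3 BAM libraries. F11r, the gene of a junctional adhesion molecule, was at 507, 604 and 405 CPM in microglia and 4.21, 7.20 and 6.74 CPM in BAM (log2 difference -6.35 ± 0.50, adjusted p = 6.54e-11). Npnt, which encodes the integrin ligand nephronectin, was at 207, 157 and 123.3 CPM in microglia and 4.50, 1.49 and 0.657 CPM in BAM (log2 difference -6.31 ± 0.65, adjusted p = 1.67e-08). Neurl3, a gene of the neuralized ubiquitin ligase family, was at 136, 150.3 and 111 CPM in microglia and 3.51, 0.966 and 1.40 CPM in BAM (log2 difference -6.16 ± 0.58, adjusted p = 1.41e-09). The other 5 were Adgrg5, an adhesion G protein-coupled receptor gene (-8.10 ± 0.99), Cyp4f18, a fatty acid hydroxylase gene (-6.49 ± 0.80), the paired receptor gene Pilra (-6.48 ± 0.70), the orphan receptor gene Gpr35 (-6.44 ± 0.87) and the inhibitory receptor gene Cd300lf (-6.11 ± 0.90).

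**Figure D2:**
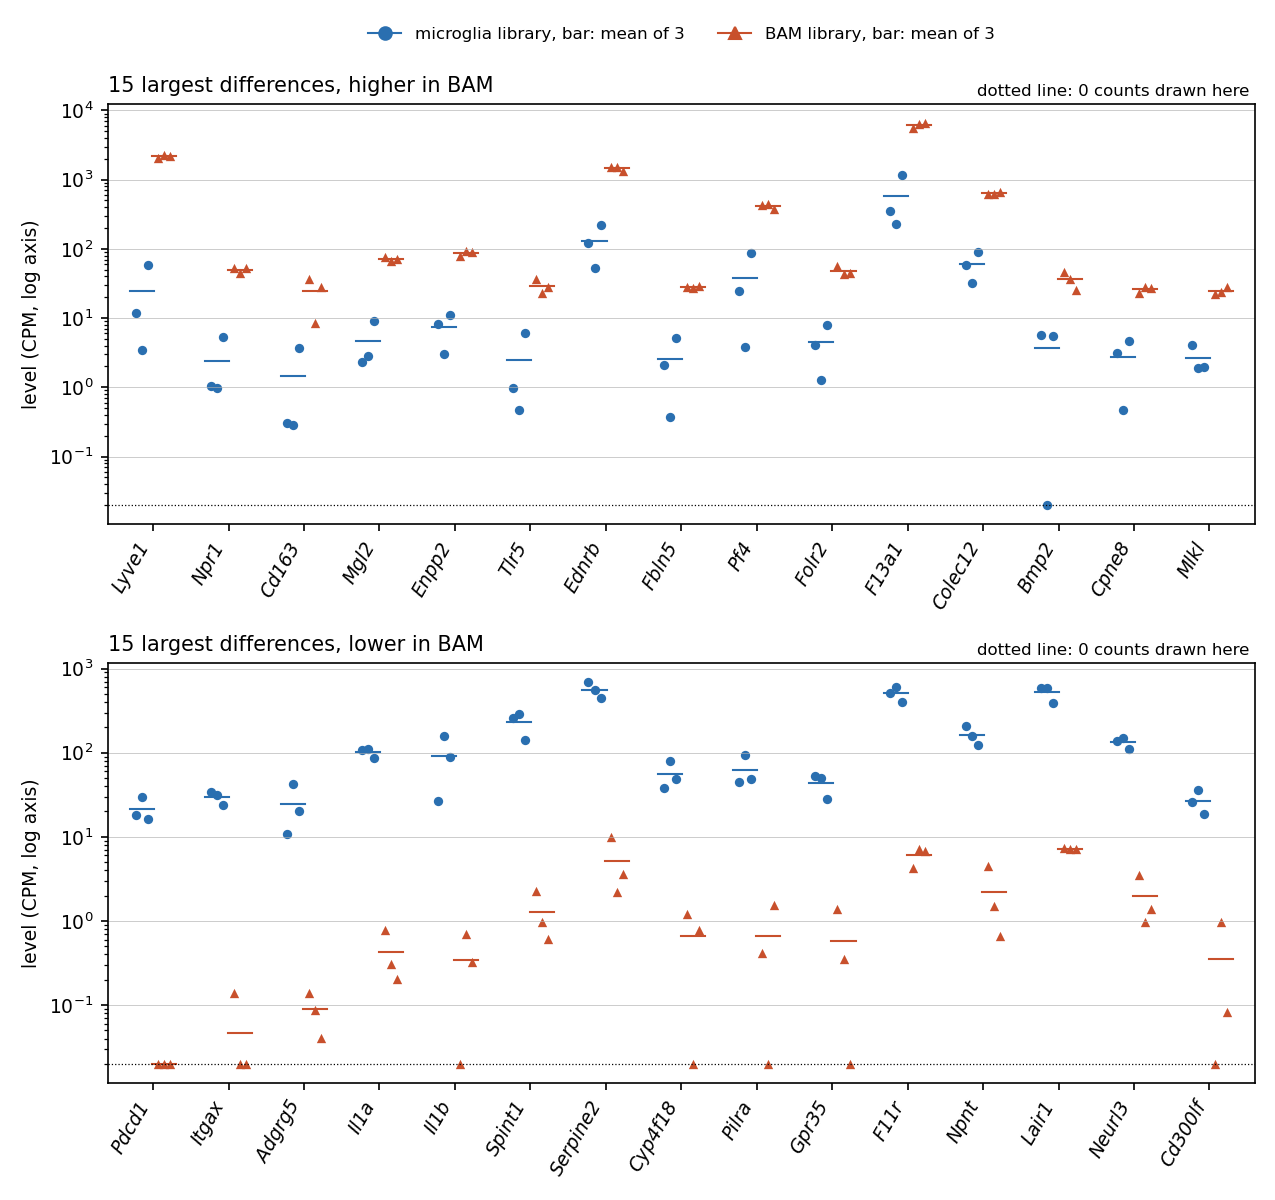
Level in each library (CPM, log axis) of the 15 genes with the largest rise (top) and the 15 with the largest decrease (bottom) in BAM, with 1 point for each of the 3 microglia and 3 BAM libraries and a bar at each mean; counts of 0 are drawn on the dotted line. For Lyve1 the BAM points sit at 2032 to 2265 CPM and the microglia points at 3.49 to 57.5; for Lair1 the order is the opposite, with BAM at 7.11 to 7.31 CPM.

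Promoter sequence from RefSeq (GRCm38.p6, from 250 bases before to 50 bases after each annotated start) matched 695 of the genes called higher and 724 of those called lower, and 13371 of the tested genes. The windows were searched on both strands for short motifs of factors that act in macrophages, and none of the motifs contains another. The letters GAGGAAG, bound by the ETS factor PU.1, occurred in 20.7% of 1004 windows of genes lower in BAM, in 12.9% of 940 windows of genes higher in BAM, and in 13.8% of 16972 windows of all tested genes. The MAF half-site TGCTGAC occurred in 6.06% of the windows of higher genes and 3.88% of those of lower genes, beside 3.88% over all. The AP-1 motif TGAGTCA was at 4.26, 4.18 and 4.03% in the higher, lower and all windows, and the E-box CACGTG was at 9.79, 8.96 and 9.05%. The interferon element GAAACGAAA was at 0.426, 0.199 and 0.253%, and the SMAD motif GTCTAGAC at 0, 0.299 and 0.242%. A match is a description of the letters and does not show binding. The 250 bases before the start are shown for 4 of the genes above, 2 lower and 2 higher in BAM, since each holds at least 1 of these motifs on either strand. Capitals mark the matches.
Il1a (chr2:129309973-129310222, minus strand): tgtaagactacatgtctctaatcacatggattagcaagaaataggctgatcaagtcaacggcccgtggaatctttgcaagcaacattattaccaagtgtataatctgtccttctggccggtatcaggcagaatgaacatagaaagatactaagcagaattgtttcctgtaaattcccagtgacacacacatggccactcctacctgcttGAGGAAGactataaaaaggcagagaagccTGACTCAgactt
Lair1 (chr7:4063205-4063454, minus strand): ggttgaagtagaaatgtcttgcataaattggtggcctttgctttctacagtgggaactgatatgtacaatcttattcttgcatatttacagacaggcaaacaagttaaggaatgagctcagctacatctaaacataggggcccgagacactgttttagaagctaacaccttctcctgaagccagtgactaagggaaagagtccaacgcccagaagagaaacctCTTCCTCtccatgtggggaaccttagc
Pf4 (chr5:90772185-90772434, plus strand): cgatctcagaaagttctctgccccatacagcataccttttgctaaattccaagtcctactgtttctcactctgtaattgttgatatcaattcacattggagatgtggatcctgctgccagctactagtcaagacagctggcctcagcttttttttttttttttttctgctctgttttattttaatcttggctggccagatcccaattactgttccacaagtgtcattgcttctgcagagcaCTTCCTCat
Npr1 (chr3:90465867-90466116, minus strand): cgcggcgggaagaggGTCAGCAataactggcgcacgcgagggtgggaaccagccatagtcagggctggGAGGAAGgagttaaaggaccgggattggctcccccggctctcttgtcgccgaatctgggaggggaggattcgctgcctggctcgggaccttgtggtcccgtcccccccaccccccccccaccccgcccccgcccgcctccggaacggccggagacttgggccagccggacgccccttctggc
In Il1a the PU.1 letters begin 41 bases before the start and the AP-1 letters 12 bases before it. Lair1 has the PU.1 letters in reverse orientation from 27 bases before its start. Pf4 has them in reverse orientation from 9 bases before, so the same letters stand close to the start of a gene lower in BAM and of one higher in BAM. Npr1 has the reversed MAF half-site from 235 and the PU.1 letters from 182 bases before its start.

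The labels were set beside marker genes of both populations. These marker lists were written with earlier results of these data known, so their counts are a description and no independent check of the labels. Of 25 tested microglia markers, 22 were lower in BAM and 0 higher, with a median difference of -2.73. Tmem119 was at 708, 840.5 and 632 CPM in microglia and 19.9, 33.7 and 34.3 CPM in BAM (log2 difference -4.60 ± 0.28, adjusted p = 5.73e-14). P2ry12 was at 1321, 1077 and 679 CPM in microglia and 122, 124 and 110.5 CPM in BAM (log2 difference -3.10 ± 0.21, adjusted p = 2.04e-13). Both genes were far apart between the groups, yet each was measurable in every BAM library. Sall1, a zinc finger transcription factor gene of microglia, was at 206, 186 and 127 CPM in microglia and 7.02, 1.67 and 4.11 CPM in BAM (log2 difference -5.39 ± 0.83, adjusted p = 1.82e-05). Golm1, a Golgi membrane protein gene, was at 437, 425 and 236 CPM in microglia and 44.2, 43.5 and 41.5 CPM in BAM (log2 difference -3.08 ± 0.20, adjusted p = 8.89e-14). The chemokine receptor gene Cx3cr1 was at 4459, 3896 and 2595 CPM in microglia and 1555, 1793 and 1636 CPM in BAM (log2 difference -1.12 ± 0.14, adjusted p = 2.06e-07), a smaller difference than for the genes before it. Csf1r, the receptor for colony stimulating factor 1 on which microglia depend, was at 7470, 6394 and 5593 CPM in microglia and 5196, 5242 and 5042 CPM in BAM (log2 difference -0.32 ± 0.12, adjusted p = 0.0896) and did not pass the test, although its groups did not overlap. The count of markers lower was 21 to 23 when 1 library was left out, and 16 markers passed a test against a 2-fold change.

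Of 33 tested border macrophage markers, 24 were higher in BAM and 0 lower (1 lower with library pairs as a block in a fit of the 6 libraries alone, which gave 0 without the block), with a median of 2.14. Mrc1, the mannose receptor gene, was at 639, 226 and 1064 CPM in microglia and 5044, 5453 and 5040 CPM in BAM (log2 difference 3.04 ± 0.34, adjusted p = 4.64e-08). Igfbp4, which encodes an insulin-like growth factor binding protein, was at 263, 168 and 312 CPM in microglia and 1773, 2065 and 1431 CPM in BAM (log2 difference 2.85 ± 0.22, adjusted p = 9.89e-12). Stab1, a scavenger receptor gene, was at 1871, 1357 and 3080 CPM in microglia and 7132, 7845 and 8559 CPM in BAM (log2 difference 1.93 ± 0.19, adjusted p = 1.39e-09). Mrc1 was well above 0 in every microglia library, so its transcript was not absent from the microglia libraries at E12.5. Markers that did not pass the test included Apoe, the apolipoprotein E gene, at 16331, 15841 and 24066 CPM in microglia and 12525, 12869 and 16325 CPM in BAM (log2 difference -0.41 ± 0.28, adjusted p = 0.524), where the groups overlapped. The general macrophage gene Adgre1, which encodes F4/80, was at 1265, 847 and 1094 CPM in microglia and 1156, 1252 and 1319 CPM in BAM (log2 difference 0.24 ± 0.14, adjusted p = 0.43), also with overlap. Ptprc, the gene of the leukocyte antigen CD45, was lower in BAM, at 530.0, 599 and 454 CPM in microglia and 289.7, 258 and 258 CPM in BAM (log2 difference -0.97 ± 0.15, adjusted p = 1.44e-05). Itgam, which encodes CD11b, was at 115, 119 and 92.95 CPM in microglia and 15.4, 19.9 and 15.8 CPM in BAM (log2 difference -2.66 ± 0.20, adjusted p = 4.29e-12), and Aif1, which encodes IBA1, was at 100.2, 109 and 148 CPM in microglia and 38.4, 53.8 and 46.9 CPM in BAM (log2 difference -1.33 ± 0.20, adjusted p = 6.28e-06). Ptprc, Itgam and Aif1, which are used to label brain macrophages of every kind, were thus lower in BAM, with no overlap between groups.

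The level of BAM genes in microglia differed by library. Lyve1 reached 0.554, 0.162 and 2.67% of the BAM mean in microglia libraries 1, 2 and 3. For Pf4 these shares were 5.96, 0.902 and 20.6%, for F13a1 5.83, 3.66 and 19.2%, for Colec12 9.35, 5.13 and 14.2% and for Cd163 1.27, 1.17 and 15.4%. The order of the 3 libraries was the same for all 5 genes, but the shares differed between genes. Of 471 genes at least 2-fold lower in BAM with a mean of at least 10 CPM, microglia library 2 had the highest level of its group in 230 and library 3 the lowest in 286. The source of this order was not tested.

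**Figure D3:**
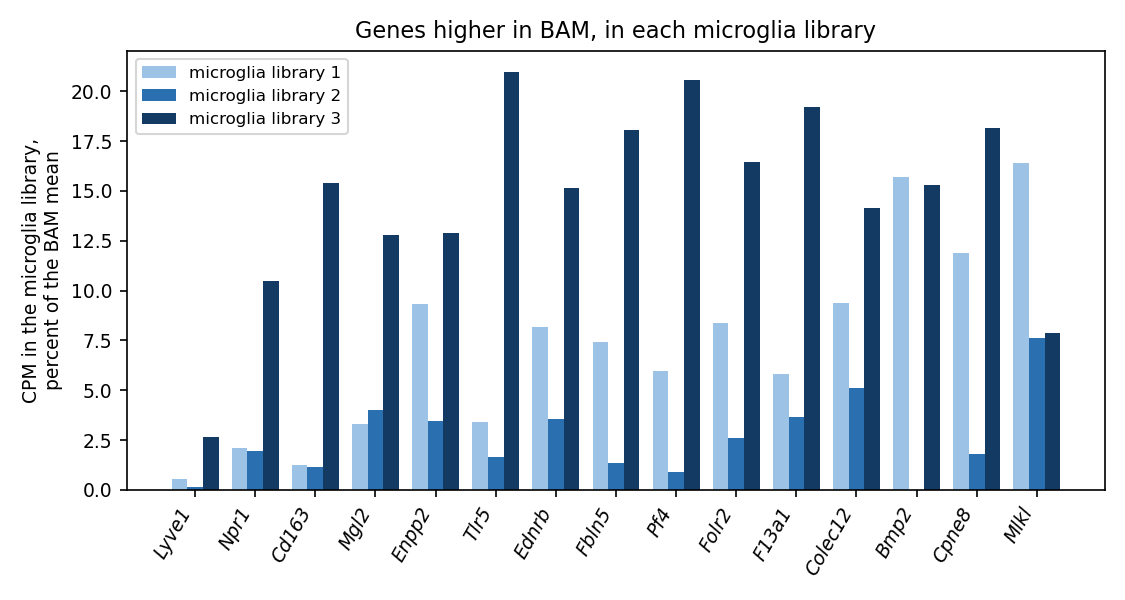
Level of the 15 genes with the largest rise in BAM in each of the 3 microglia libraries, as a percentage of the mean CPM of the 3 BAM libraries, with 1 bar per library. Microglia library 3 is the highest for all but Bmp2 and Mlkl, for example 20.6% for Pf4 beside 0.902% in library 2.

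Interleukin-1 cytokines are made as precursors, and several are released through inflammasomes, which are built on sensors such as the NAIP proteins and NLRC4. Of 22 tested genes of the family and the inflammasome, 9 were lower in BAM and 3 higher (median -0.59). Beside Il1a and Il1b, the sensor genes Naip2 and Naip5 were lower. Naip2 was at 97.3, 129.6 and 77.4 CPM in microglia and 30.1, 38.9 and 33.6 CPM in BAM (log2 difference -1.56 ± 0.20, adjusted p = 4.36e-07), and Naip5 was at 76.6, 81.97 and 78.2 CPM in microglia and 26.6, 26.03 and 20.5 CPM in BAM (log2 difference -1.69 ± 0.23, adjusted p = 9.86e-07). The Naip genes are near-identical copies and the split of reads among them is uncertain. The 3 higher genes, named after their values were seen, were Il1rap (1.66 ± 0.32), Nlrc4 at 8.998, 7.16 and 11.4 CPM in microglia and 36.95, 42.3 and 38.2 CPM in BAM (log2 difference 2.11 ± 0.43, adjusted p = 5.54e-04) and Il18 at 18.4, 17.9 and 29.5 CPM in microglia and 57.2, 57.1 and 52.8 CPM in BAM (log2 difference 1.36 ± 0.31, adjusted p = 0.00277). Il1rap is the accessory chain of the interleukin-1 receptor, Nlrc4 the adaptor that NAIP proteins activate, and Il18 a cytokine of the same family.

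**Figure D4:**
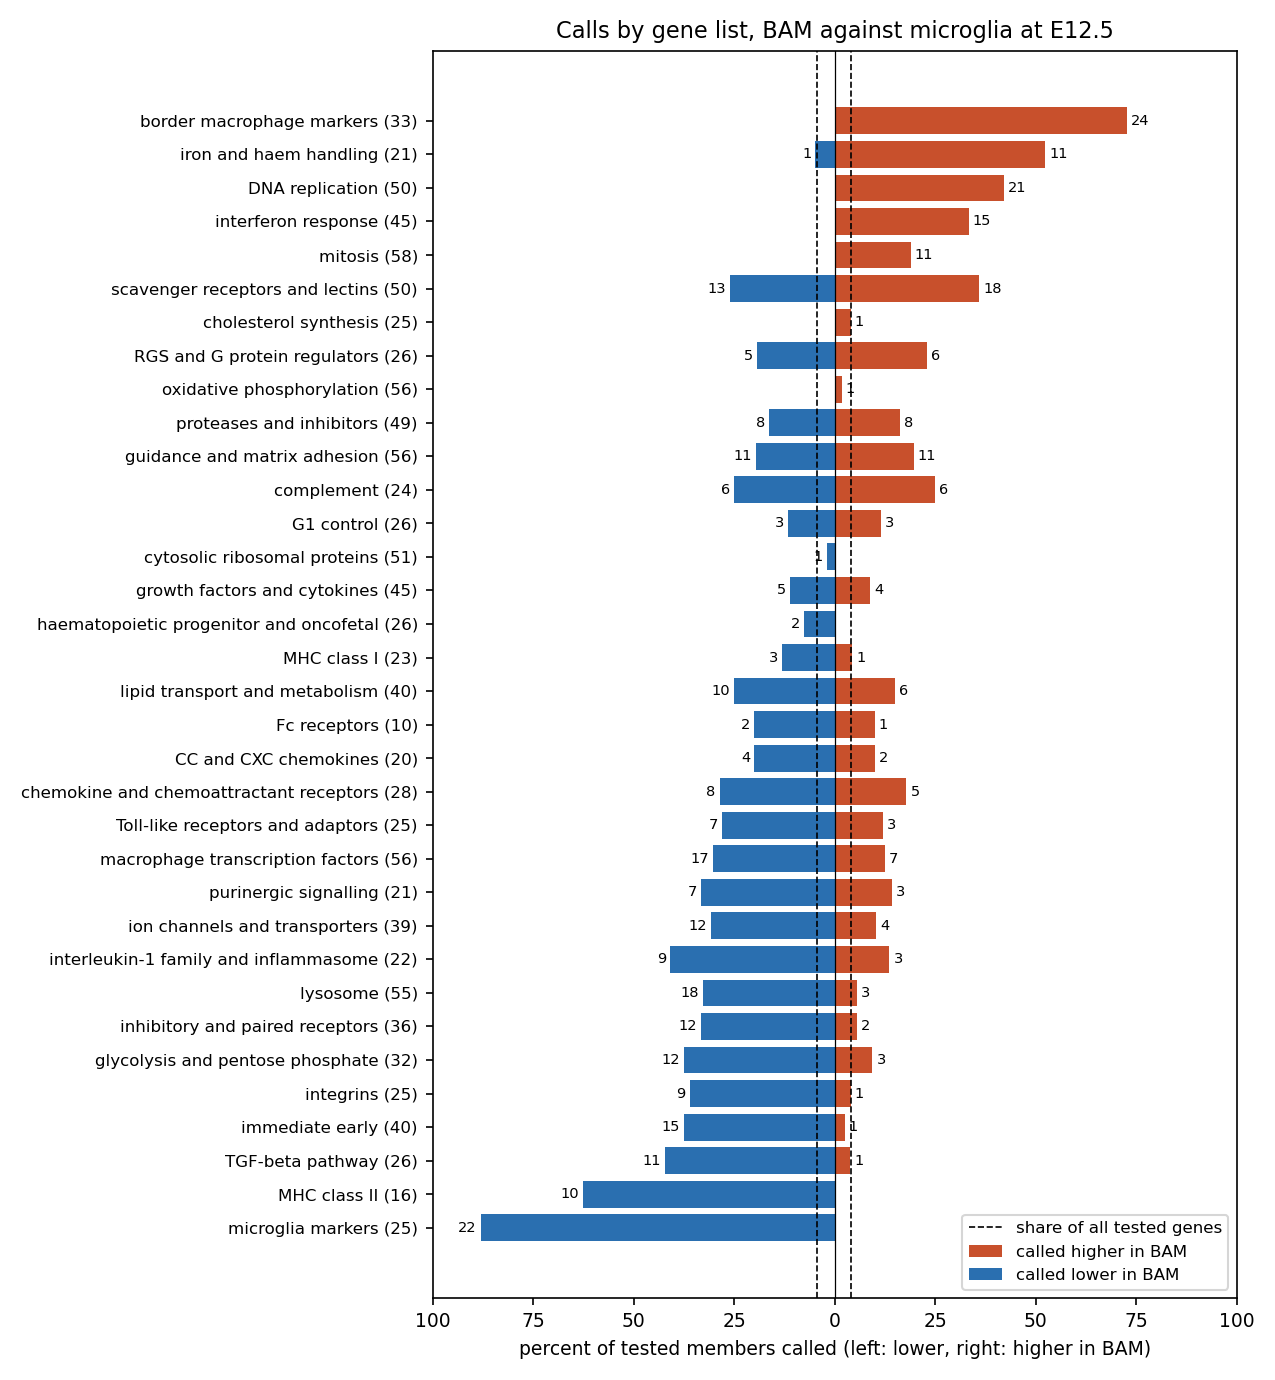
Percent of the tested genes of each list called higher (right) or lower (left) in BAM at E12.5, with the number called at each bar, the number tested after each name, and dashed lines at the shares over all tested genes (4.13 and 4.46%). The bars run from 24 higher and 0 lower of 33 for the border macrophage markers at the top to 0 higher and 22 lower of 25 for the microglia markers at the bottom.

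Chemokines are the ligands that steer leukocytes, and 4 of 20 tested CC and CXC chemokine genes were lower in BAM and 2 higher. Cxcl16 was at 56.8, 36.6 and 47.1 CPM in microglia and 3.65, 4.79 and 2.34 CPM in BAM (log2 difference -3.69 ± 0.41, adjusted p = 2.65e-08). Ccl4 was at 141, 245 and 317 CPM in microglia and 14.4, 26.2 and 27.4 CPM in BAM (log2 difference -3.33 ± 0.51, adjusted p = 1.78e-05). In the other direction, Ccl24 was at 12.1, 4.19 and 35.5 CPM in microglia and 117, 141 and 131 CPM in BAM (log2 difference 2.94 ± 0.51, adjusted p = 1.14e-04) and Ccl7 at 16.8, 13.6 and 32.7 CPM in microglia and 58.4, 80.1 and 71.1 CPM in BAM (log2 difference 1.76 ± 0.37, adjusted p = 0.00103). The set of chemokine transcripts therefore differed in kind, with the median of the list at 0.28. Of 28 receptors for chemokines and other attractants, 8 were lower and 5 higher. S1pr1, a sphingosine 1-phosphate receptor gene, differed by -1.48 ± 0.17. C5ar1, the receptor for complement fragment C5a, was at 146, 80.7 and 152 CPM in microglia and 477, 416 and 492 CPM in BAM (log2 difference 1.89 ± 0.23, adjusted p = 1.01e-07). Cxcr2 was at 71.7, 62.3 and 31.2 CPM in microglia and 0.562, 3.07 and 1.15 CPM in BAM (log2 difference -5.03 ± 0.60, adjusted p = 1.05e-07). Cxcr3, chosen after its values were seen, was at 4.44, 3.02 and 10.4 CPM in microglia and 51.8, 47.9 and 43.7 CPM in BAM (log2 difference 3.02 ± 0.43, adjusted p = 2.68e-06), the opposite direction to Cxcr2. The 5 receptors called higher became 3 without microglia library 1 or without BAM library 2.

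Among 45 tested growth factors and cytokines, 5 were lower and 4 higher in BAM (median -0.54). Csf1, a ligand of the receptor encoded by Csf1r, was at 90.4, 82.02 and 74.8 CPM in microglia and 4.92, 2.98 and 3.78 CPM in BAM (log2 difference -4.41 ± 0.38, adjusted p = 1.49e-10). Pdgfb, a platelet-derived growth factor gene, was at 29.5, 39.3 and 39.4 CPM in microglia and 0.141, 0.966 and 3.70 CPM in BAM (log2 difference -4.40 ± 0.65, adjusted p = 5.20e-06). Gas6, a ligand of the TAM receptors that take part in the uptake of dying cells, was at 779, 496 and 718 CPM in microglia and 2111, 2216 and 2184 CPM in BAM (log2 difference 1.73 ± 0.20, adjusted p = 8.01e-08). Igf1, the insulin-like growth factor 1 gene, was at 85.2, 37.3 and 126 CPM in microglia and 288, 266 and 282 CPM in BAM (log2 difference 1.77 ± 0.26, adjusted p = 4.40e-06). Every BAM library had less Csf1 and Pdgfb and more Gas6 and Igf1 than any microglia library. Tnf, chosen after its values were seen, was at 31.9, 66.1 and 54.7 CPM in microglia and 7.66, 11.2 and 10.2 CPM in BAM (log2 difference -2.37 ± 0.61, adjusted p = 0.00857).

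Transforming growth factor beta (TGF-beta) is held latent outside the cell, released in part by integrins, and signals through TGFBR1 and TGFBR2 to SMAD proteins. In the adult brain it is required for the identity of microglia. Of 26 tested genes of the pathway, 11 were lower in BAM and 1 higher (median -0.68). Tgfbr1 was at 964, 1045 and 541 CPM in microglia and 90.9, 83.1 and 56.6 CPM in BAM (log2 difference -3.47 ± 0.34, adjusted p = 2.64e-09). Itgb5, the integrin beta 5 gene, was at 359.9, 539 and 610.4 CPM in microglia and 75.2, 81.8 and 136 CPM in BAM (log2 difference -2.34 ± 0.22, adjusted p = 4.73e-10). Skil, a negative regulator of SMAD proteins that the pathway induces, was at 153, 169.5 and 111 CPM in microglia and 20.5, 13.5 and 12.8 CPM in BAM (log2 difference -3.22 ± 0.29, adjusted p = 1.88e-10). Pmepa1, another target that dampens the pathway, was at 32.05, 35.6 and 49 CPM in microglia and 1.61, 0.878 and 2.18 CPM in BAM (log2 difference -4.62 ± 0.54, adjusted p = 6.57e-08). No library of one group entered the range of the other for these 4 genes. Smad7, an inhibitory SMAD, was at 24.2, 26.1 and 21.2 CPM in microglia and 1.26, 0.790 and 1.64 CPM in BAM (log2 difference -4.26 ± 0.76, adjusted p = 1.13e-04), and Nrros, which encodes a protein that holds latent TGF-beta at the surface of microglia, was the 1 gene higher in BAM, at 424, 472 and 593 CPM in microglia and 717, 865 and 932 CPM in BAM (log2 difference 0.78 ± 0.14, adjusted p = 7.62e-05). Both were named after their values were seen, as were 3 genes of the core pathway that did not pass the test: the ligand gene Tgfb1 (log2 difference -0.35 ± 0.36, adjusted p = 0.754), the receptor gene Tgfbr2 (log2 difference -0.28 ± 0.15, adjusted p = 0.349) and Smad3 (log2 difference -0.36 ± 0.16, adjusted p = 0.206).

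Surface receptors that take up ligands were divided between the populations. Of 50 tested scavenger receptors and lectins, 18 were higher and 13 lower in BAM, with a median of -0.03. Siglech, a sialic acid-binding lectin gene of microglia, was at 738, 542 and 371 CPM in microglia and 91.1, 91.4 and 65.4 CPM in BAM (log2 difference -2.73 ± 0.26, adjusted p = 7.70e-10), whereas Colec12, Stab1 and Mrc1 were higher as given above. Msr1, the class A scavenger receptor gene, was at 16.8, 9.33 and 41.9 CPM in microglia and 162, 167 and 153 CPM in BAM (log2 difference 2.85 ± 0.35, adjusted p = 3.15e-07), and Dab2, an adaptor for endocytosis, was at 606, 356 and 1182 CPM in microglia and 4899, 5635 and 5858 CPM in BAM (log2 difference 2.96 ± 0.31, adjusted p = 1.44e-08). Msr1 and Dab2 were chosen after their values were seen. Of 36 inhibitory and paired receptors, 12 were lower and 2 higher (median -1.11). Vsir, which encodes the checkpoint receptor VISTA, was at 721, 790.0 and 565 CPM in microglia and 175, 214 and 172 CPM in BAM (log2 difference -1.88 ± 0.14, adjusted p = 3.28e-12). Havcr2, which encodes TIM-3, was at 206, 180.1 and 119.6 CPM in microglia and 12.8, 5.79 and 7.52 CPM in BAM (log2 difference -4.30 ± 0.40, adjusted p = 9.18e-10). The CD200 receptor gene Cd200r1 moved in the other direction, at 17.7, 14.46 and 28.7 CPM in microglia and 169, 133 and 150.5 CPM in BAM (log2 difference 2.91 ± 0.25, adjusted p = 7.80e-11). Vsir and Havcr2, like Pdcd1 and Lair1, were thus lower in BAM, and the 2 receptors called higher, Cd200r1 among them, became 1 without microglia library 2.

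Genes for the display of antigen by major histocompatibility complex (MHC) class II molecules were lower in BAM for 10 of 16 tested genes, with 0 higher (median -2.08). Ctss, the protease cathepsin S that trims the invariant chain, was at 3406, 3309 and 2814 CPM in microglia and 482, 487 and 497 CPM in BAM (log2 difference -2.69 ± 0.22, adjusted p = 4.17e-11). H2-DMa, a chain of the molecule that loads peptides, was at 74.8, 83.3 and 71.7 CPM in microglia and 2.25, 1.76 and 2.79 CPM in BAM (log2 difference -5.06 ± 0.55, adjusted p = 1.90e-08). H2-DMb1 was at 18.2, 20.4 and 17.8 CPM in microglia and 2.46, 1.98 and 2.05 CPM in BAM (log2 difference -3.12 ± 0.36, adjusted p = 4.45e-08) and H2-DMb2 at 15.6, 22.5 and 16.7 CPM in microglia and 0.773, 0.307 and 0.411 CPM in BAM (log2 difference -5.22 ± 0.70, adjusted p = 7.54e-07). The DMb genes are similar copies, and the assignment of reads between them is uncertain. Cd74, the invariant chain gene, was chosen after its values were seen and was at 8.07, 21.2 and 14.96 CPM in microglia and 5.13, 7.07 and 4.52 CPM in BAM (log2 difference -1.39 ± 0.38, adjusted p = 0.0134). The master regulator gene Ciita (log2 difference -0.81 ± 1.58, adjusted p = 0.931), likewise chosen, did not pass the test. For MHC class I, 1 of 23 genes was higher and 3 lower. H2-D1 was at 379.8, 372 and 557 CPM in microglia and 694, 591 and 738 CPM in BAM (log2 difference 0.64 ± 0.18, adjusted p = 0.0151), and this call was lost without microglia library 1, microglia library 2 or BAM library 3. The 3 called lower became 0 without microglia library 1, BAM library 2 or BAM library 3 and 1 without microglia library 3.

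Interferon response genes included 15 of 45 higher in BAM and 0 lower (median 0.67). Oas2, a sensor of double-stranded RNA, was at 22.5, 25.4 and 60.99 CPM in microglia and 155, 144 and 192 CPM in BAM (log2 difference 2.19 ± 0.34, adjusted p = 1.02e-05). Ifi207, a gene of the interferon-inducible p200 family, was at 81.05, 68.5 and 139 CPM in microglia and 272, 284 and 289 CPM in BAM (log2 difference 1.57 ± 0.23, adjusted p = 5.66e-06). Oas1a differed by 1.54 ± 0.29 and the GTPase gene Ifi47 by 1.80 ± 0.36. Oas1a and Ifi207 have similar copies nearby, so the assignment of their reads is uncertain. Within microglia, library 3 was the highest for Oas2 and Ifi207, as for the BAM genes above. The 15 became 9 without microglia library 1 and 7 without microglia library 2, and 1 passed a test against a 2-fold change.

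Receptors for microbial products and complement were mixed. Of 25 Toll-like receptors and adaptors, 7 were lower and 3 higher in BAM. Cd180, a receptor related to the Toll-like family, was at 155, 154 and 139.5 CPM in microglia and 45.5, 50.7 and 55.3 CPM in BAM (log2 difference -1.55 ± 0.17, adjusted p = 2.68e-08), and Ly86, which encodes its partner MD-1, was at 964, 695 and 712 CPM in microglia and 268, 262 and 253 CPM in BAM (log2 difference -1.59 ± 0.21, adjusted p = 4.40e-07). The receptor and its partner were thus both lower in BAM. Tlr13 differed by -1.17 ± 0.20 and Tlr12 by -4.14 ± 0.80. Of 24 complement genes, 6 were higher and 6 lower. Vsig4, the complement receptor of resident macrophages, was at 0, 0.0940 and 0.212 CPM in microglia and 5.48, 5.44 and 8.42 CPM in BAM (log2 difference 5.85 ± 1.16, adjusted p = 9.57e-04), with 7 counts in microglia in all. C4b, which encodes complement C4, had no count in microglia and was at 3.72, 6.85 and 1.40 CPM in BAM, at least 80.5-fold higher against the floor of 3 counts over the group. Vsig4 and C4b were named after their values were seen. Fcgrt, the neonatal Fc receptor gene, was at 355, 199 and 531 CPM in microglia and 1394, 1430 and 1750 CPM in BAM (log2 difference 2.10 ± 0.24, adjusted p = 4.45e-08), and the Fc receptor-like gene Fcrls was at 3236, 2609 and 2540 CPM in microglia and 1607, 1661 and 1776 CPM in BAM (log2 difference -0.72 ± 0.12, adjusted p = 3.14e-05). Of 10 Fc receptor genes 1 was higher and 2 were lower, and the 2 became 1 without any E12.5 library other than microglia library 2; the 1 became 2 without microglia library 3.

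Purinergic receptors sense nucleotides and adenosine outside the cell, and 7 of 21 genes of this system were lower in BAM and 3 higher. P2ry13 was at 599.8, 430.4 and 335 CPM in microglia and 131, 143 and 168 CPM in BAM (log2 difference -1.61 ± 0.17, adjusted p = 1.01e-08), and the adenosine receptor gene Adora3 differed by -4.37 ± 0.45. The 3 called higher became 1 without BAM library 3. Of 25 integrins, 9 were lower and 1 higher (median -0.90). Itgb2, the beta chain shared by CD11a, CD11b and CD11c, was at 213, 212 and 182 CPM in microglia and 67.99, 75.9 and 62.9 CPM in BAM (log2 difference -1.54 ± 0.16, adjusted p = 7.46e-09). Itgal, which encodes CD11a, was at 215, 271 and 193 CPM in microglia and 28.7, 27.2 and 26.4 CPM in BAM (log2 difference -3.04 ± 0.21, adjusted p = 5.10e-13). With Itgam and Itgax, the beta 2 chain and 3 of its partners were lower in BAM in every library.

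Of 56 genes for guidance and matrix adhesion, 11 were higher and 11 lower. Cadm1, a cell adhesion molecule, differed by -2.85 ± 0.19, and Sema4d, a semaphorin, by -2.85 ± 0.26. Cd9, a tetraspanin gene, was at 356, 266 and 239 CPM in microglia and 24.4, 26.8 and 31.7 CPM in BAM (log2 difference -3.36 ± 0.32, adjusted p = 1.42e-09). Among 49 proteases and inhibitors, 8 were higher and 8 lower, with Spint1 and Serpine2 lower as above and the intracellular inhibitor gene Serpinb6a higher (2.34 ± 0.31). Ion channels and transporters numbered 12 lower and 4 higher of 39, among them the potassium channel gene Kcnk13 (-2.65 ± 0.26). RGS genes, which shorten signals through G proteins, were listed with other signalling genes, the receptor gene Npr1 among them. Of these 26 genes, 6 were higher and 5 lower, including Rgs1, given below with the immediate early genes. Rgs2 was at 298, 353 and 283 CPM in microglia and 79.3, 91 and 97.3 CPM in BAM (log2 difference -1.79 ± 0.23, adjusted p = 2.61e-07), while Rgs3 differed by 1.04 ± 0.16. The direction was not shared within this family.

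Among 56 tested transcription factors of macrophages, 17 were lower in BAM and 7 higher (median -0.50). Bhlhe41 was at 113, 100.6 and 88.9 CPM in microglia and 10.8, 6.54 and 8.18 CPM in BAM (log2 difference -3.57 ± 0.32, adjusted p = 2.14e-10). Irf8, on which the development of microglia depends, was at 614, 687 and 635 CPM in microglia and 278, 284 and 320.5 CPM in BAM (log2 difference -1.12 ± 0.12, adjusted p = 4.53e-09). Rbpj, the nuclear effector of Notch signalling, was at 111, 88.05 and 104 CPM in microglia and 286, 273 and 247 CPM in BAM (log2 difference 1.43 ± 0.15, adjusted p = 4.24e-09). All 3 were separated between groups, with Bhlhe41 and Irf8 lower in BAM and Rbpj higher. A pair of factors was chosen after their values were seen. Maf, which encodes a basic leucine zipper factor, had a difference of 0.65 ± 0.19 (adjusted p = 0.0222), and Spi1, which encodes PU.1, had one of -0.09 ± 0.23 (adjusted p = 0.961) and did not pass the test. The 7 factors called higher became 4 without microglia library 1 or 2.

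Macrophages recycle iron from haem through uptake, breakdown by haem oxygenase and export by ferroportin. Of 21 tested genes of iron and haem handling, 11 were higher in BAM and 1 lower (median 1.19). Blvra, which encodes the biliverdin reductase that acts after haem oxygenase, was at 65.95, 60.8 and 112 CPM in microglia and 209, 225 and 275 CPM in BAM (log2 difference 1.60 ± 0.27, adjusted p = 4.52e-05). Slc48a1, which encodes a haem transporter of the lysosome, was at 113, 114 and 132 CPM in microglia and 265, 294 and 245 CPM in BAM (log2 difference 1.18 ± 0.13, adjusted p = 1.90e-08). Ncoa4, the receptor for ferritin breakdown, differed by 0.84 ± 0.14. Slc11a1, the phagosomal metal transporter NRAMP1, was the 1 gene lower (2 in a fit of the 6 libraries alone, with or without library pairs as a block), at 646, 606 and 543 CPM in microglia and 267, 289 and 273 CPM in BAM (log2 difference -1.10 ± 0.12, adjusted p = 1.25e-08). Hmox1, haem oxygenase 1, was at 306, 240.0 and 370.0 CPM in microglia and 711, 730.5 and 801 CPM in BAM (log2 difference 1.31 ± 0.24, adjusted p = 1.13e-04), Slc40a1, ferroportin, at 351, 183 and 381 CPM in microglia and 954, 872 and 1051 CPM in BAM (log2 difference 1.67 ± 0.28, adjusted p = 5.37e-05), and the transferrin receptor gene Tfrc differed by 1.34 ± 0.23. These last 3 were named with their values known. With Cd163, uptake, breakdown and export each had a gene higher in BAM. These genes were picked by their values, so this describes them and not the route, and 9 of the 21 tested genes were not called. The count higher was 9 to 11 when 1 library was left out.

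Lysosomal genes were lower in BAM for 18 of 55 and higher for 3 (median -0.15). Ctsd, the protease cathepsin D, was at 5248, 5049 and 4426 CPM in microglia and 1822, 1677 and 1898 CPM in BAM (log2 difference -1.44 ± 0.14, adjusted p = 8.29e-10). Arsb, the enzyme arylsulfatase B, was at 351, 372 and 128 CPM in microglia and 40.04, 49.1 and 32.9 CPM in BAM (log2 difference -2.80 ± 0.28, adjusted p = 3.17e-09). The lysosomal membrane protein gene Scarb2 differed by -1.37 ± 0.14. Together with Ctss, enzymes of the lysosome were among its genes lower in BAM. Of 40 genes of lipid transport and metabolism, 10 were lower and 6 higher. Lpcat2, an enzyme of platelet-activating factor synthesis, was at 448, 435 and 327 CPM in microglia and 26.8, 28.97 and 34.3 CPM in BAM (log2 difference -3.73 ± 0.23, adjusted p = 5.73e-14). Ptgs1, cyclooxygenase 1, was at 942, 869 and 717 CPM in microglia and 175, 189.8 and 176 CPM in BAM (log2 difference -2.21 ± 0.17, adjusted p = 9.89e-12). Pla2g7, which breaks platelet-activating factor down, was at 101.4, 142 and 98.2 CPM in microglia and 15.5, 12.1 and 12.98 CPM in BAM (log2 difference -3.07 ± 0.34, adjusted p = 1.75e-08). Abcg1, a cholesterol exporter, was at 393, 286 and 280.2 CPM in microglia and 59.4, 29.3 and 41.9 CPM in BAM (log2 difference -2.88 ± 0.30, adjusted p = 6.05e-09). Lpcat2 and Pla2g7 were thus both lower in BAM, with no overlap between groups. The 6 called higher became 3 without microglia library 2. Of 25 cholesterol synthesis genes and of 56 genes of oxidative phosphorylation, 1 each was called, both higher: Stard4, a sterol carrier (0.98 ± 0.23), and Sdhc, a subunit of succinate dehydrogenase (0.84 ± 0.23). The Sdhc call was lost without BAM library 2 (adjusted p = 0.0782) and without microglia library 3 (adjusted p = 0.0673). In a fit of the 6 libraries alone, 1 oxidative phosphorylation gene was called higher without and 3 with library pairs as a block.

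Glycolysis and the pentose phosphate route had 12 of 32 tested entries lower in BAM and 3 higher. Slc2a5, the fructose transporter GLUT5 of microglia, was at 241, 219 and 155 CPM in microglia and 12.8, 20.98 and 15.2 CPM in BAM (log2 difference -3.63 ± 0.30, adjusted p = 4.77e-11). Hk2, hexokinase 2, was at 243, 272 and 184 CPM in microglia and 92.8, 97.3 and 96.4 CPM in BAM (log2 difference -1.28 ± 0.18, adjusted p = 2.45e-06). The glucose transporter gene Slc2a1 differed by -1.34 ± 0.22. Entry of sugar and its first phosphorylation thus had genes at a higher level in microglia. The 12 became 7 without microglia library 2 or without BAM library 1.

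Genes of DNA replication were higher in BAM for 21 of 50, lower for 0, with all 50 values above 0 and a median of 0.48. Pold1, the catalytic subunit of DNA polymerase delta, was at 101, 108 and 113 CPM in microglia and 166, 209.7 and 232 CPM in BAM (log2 difference 0.94 ± 0.16, adjusted p = 5.20e-05). Mcm6, part of the replicative helicase, was at 283, 275 and 335 CPM in microglia and 494, 585 and 588 CPM in BAM (log2 difference 0.92 ± 0.20, adjusted p = 0.00128). Of 58 genes of mitosis, 11 were higher and 0 lower (median 0.37). Incenp, a partner of the Aurora B kinase, was at 157, 174 and 172 CPM in microglia and 266, 309 and 332 CPM in BAM (log2 difference 0.87 ± 0.14, adjusted p = 1.52e-05). The differences were below 2-fold and the groups separate for these 3 genes. Mki67 and Top2a, proliferation markers chosen after their values were seen, did not pass the test (-0.11 ± 0.18, adjusted p = 0.892, and 0.17 ± 0.13, adjusted p = 0.604). The 21 replication genes became 10 without microglia library 1 or without BAM library 2 and 13 without BAM library 3. The 11 mitotic genes became 7 and 6 without microglia libraries 1 and 2 and 5 without BAM library 2 or 3. Of 26 genes of G1 control, 3 were higher and 3 lower. Ccnd1, cyclin D1, was at 84.6, 93.9 and 81.7 CPM in microglia and 205, 184 and 178 CPM in BAM (log2 difference 1.13 ± 0.17, adjusted p = 4.87e-06), and Cdk6, a kinase it can activate, was at 199, 169.9 and 148 CPM in microglia and 83.2, 92.2 and 83.6 CPM in BAM (log2 difference -0.98 ± 0.13, adjusted p = 7.65e-07). The 3 called higher became 1 without microglia library 1 or BAM library 2.

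Immediate early genes respond within minutes to stimulation, including that of cell dissociation. Of 40 tested, 15 were lower in BAM and 1 higher (median -0.97). Rgs1 was at 202, 272 and 243 CPM in microglia and 3.79, 8.96 and 9.12 CPM in BAM (log2 difference -4.98 ± 0.60, adjusted p = 2.69e-07). Socs3, an inhibitor of cytokine signalling, differed by -3.98 ± 0.50, Egr2 by -3.06 ± 0.44 and Btg2 by -2.14 ± 0.33. The archetype of the class, Fos, named after its values were seen, had a difference of -0.58 ± 0.41 (adjusted p = 0.538), and the heat shock gene Hspa1a, likewise chosen, was the 1 gene higher (2.60 ± 0.77, adjusted p = 0.0288). Hspa1a has a near-identical neighbour, Hspa1b, and its share of reads is uncertain. The count of 1 higher became 0 without microglia library 1 or 2 or BAM library 3 and 2 without each of the others. It was 0 in a fit of the 6 libraries alone and 2 there with library pairs as a block. The count lower was 12 to 16 when 1 library was left out. Of 51 cytosolic ribosomal protein genes, 1 was called: Rpl10a, with a difference of -0.62 ± 0.17, which became 0 without microglia library 2, BAM library 1 or BAM library 3 and 2 without microglia library 3. In a fit of the 6 libraries alone, 1 ribosomal gene was called lower without and 2 with the block.

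Markers of other cells were examined because a sorted sample can carry their RNA. Haematopoietic progenitor and oncofetal genes had 2 of 26 lower in BAM and 0 higher (in a fit of the 6 libraries alone, 0 without and 1 with the block). Cd34, a sialomucin of progenitors, was at 163, 244 and 146 CPM in microglia and 13.8, 9.31 and 4.44 CPM in BAM (log2 difference -4.36 ± 0.45, adjusted p = 9.69e-09). Flt3, a growth factor receptor of progenitors, was at 1.48, 11.2 and 1.19 CPM in microglia and at 0 in every BAM library, at least 97.3-fold lower. Most Flt3 counts came from microglia library 2. The monocyte markers gave 2 of 9 lower. Ccr2 was at 8.38, 37.5 and 13.4 CPM in microglia and 0.983, 0.834 and 0.164 CPM in BAM (log2 difference -4.95 ± 1.00, adjusted p = 6.67e-04) and Plac8 at 0.370, 9.80 and 1.70 CPM in microglia and 0.281, 0.351 and 0.246 CPM in BAM (log2 difference -3.74 ± 0.81, adjusted p = 0.00138). The Plac8 call was lost without microglia library 2, with an adjusted p of 0.189, and the 2 calls became 3 without microglia library 1 or 3 and 1 in a fit of the 6 libraries alone, with or without library pairs as a block. Of 12 granulocyte and mast cell markers 0 were called by edgeR or by DESeq2, with 2 at an unadjusted p under 0.05 in edgeR, and Mpo, the myeloperoxidase gene, reached 48.6 CPM in microglia library 2.

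Erythroid genes had 1 of 14 higher and 3 lower. Epor, the erythropoietin receptor gene, was at 31.5, 8.15 and 30 CPM in microglia and 98.1, 81.3 and 101.1 CPM in BAM (log2 difference 2.03 ± 0.32, adjusted p = 1.23e-05), and the globin gene Hba-a1 was at 104, 92.1 and 143 CPM in microglia and 52.05, 33.2 and 25.1 CPM in BAM (log2 difference -1.62 ± 0.37, adjusted p = 0.0025). The adult alpha globin genes are near-identical copies, so the split of their reads is uncertain. The 3 called lower became 1 without microglia library 3 or without BAM library 3. A fit of the 6 libraries alone called 6 lower, and 10 with library pairs as a block. Endothelial markers had 1 of 16 higher, Egfl7 (1.73 ± 0.35), and 2 lower, which became 1 without microglia library 1 or 3 or BAM library 1 or 3. Pecam1, which leukocytes share with endothelium, was at 59.4, 73.1 and 75.2 CPM in microglia and 18.54, 14.6 and 17.5 CPM in BAM (log2 difference -2.03 ± 0.34, adjusted p = 3.15e-05). Neural markers had 2 of 20 lower (1 in a fit of the 6 libraries alone, with or without the block) and 0 higher. That is 10% called, near the 8.59% over all tested genes. The list as a whole was not lower in BAM, with 14 values above 0, 6 below and a median of 0.11. Of the 2 called, the progenitor filament gene Nes was at 234, 306 and 249.7 CPM in microglia and 88.2, 36.7 and 34.3 CPM in BAM (log2 difference -2.33 ± 0.30, adjusted p = 4.86e-07). In BAM, Nes was highest in library 1, the library with the highest summed level of the neural list. Mesenchymal and mural markers had 0 of 15 called by edgeR or DESeq2, and 0 at an unadjusted p under 0.05 in edgeR, and choroid plexus markers 1 of 10, Enpp2. Il7r, counted with lymphoid genes, was at 9.68, 15.7 and 9.95 CPM in microglia and 0 in every BAM library, at least 243-fold lower. The T cell genes Cd3d, Cd3e and Cd3g were at 0 in all 6 libraries. Cd79b, of the same lymphoid list, was measurable in every library and not called. It was at 67.8, 68.4 and 92.9 CPM in microglia and 67.85, 64.6 and 68.4 CPM in BAM (log2 difference -0.17 ± 0.23, adjusted p = 0.84). The part of other cells in the differences above was not tested.

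Whether the difference at E12.5 was of another size than at other stages was tested as a difference of differences in the same model. Against E11.5 (3 microglia and 3 BAM libraries), 6 genes passed (0.0272% of those tested), 3 in each direction. Against E14.5 (2 and 3 libraries), 2 genes passed (0.00907%). Against the mean of the other 5 stages, 42 genes passed (0.19%), 36 with a more negative and 6 with a more positive difference at E12.5. Unadjusted p-values under 0.05 numbered 1651, 993 and 1159 in the 3 tests. Leaving out 1 library moved the counts. The 6 genes became 42 without microglia library 3, 14 without BAM library 1 and 3 without microglia library 2. The 2 genes became 0 by edgeR without BAM library 1 or 2 (1026 and 884 at an unadjusted p under 0.05), 1 without BAM library 3 and 4 without microglia library 2. The 42 genes became 16 without microglia library 2, 17 without BAM library 2 and 14 without BAM library 3. Libraries of E10.5 and E11.5 carry another number series in their names than those of E12.5 to E16.5, while both populations of each of these stages share theirs, and E18.5 holds libraries of both series.

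For Lair1 the difference was most negative at E12.5. It was -2.94 ± 0.23 at E10.5, -4.01 ± 0.28 at E11.5, -6.17 ± 0.31 at E12.5, -5.29 ± 0.31 at E14.5, -4.40 ± 0.28 at E16.5 and -4.12 ± 0.24 at E18.5. The step from E11.5 to E12.5 was -2.16 ± 0.36 (adjusted p = 0.00694), and the distance from the mean of the other stages was -2.02 ± 0.29 (adjusted p = 0.000195). Mean levels in CPM are given here and below with the standard deviation between libraries, not the standard error. Mean levels of Lair1 in microglia were 153 ± 48.6, 298 ± 33.1, 523 ± 116, 457 ± 48.6, 632 ± 50.3 and 629 ± 40.9 CPM from E10.5 to E18.5, and in BAM 19.9 ± 5.70, 18.7 ± 2.42, 7.22 ± 0.0975, 11.1 ± 2.82, 29.1 ± 13.4 and 38.9 ± 9.34 CPM. BAM thus had their lowest mean at E12.5, while the microglia mean had reached its later range. Spint1 had a like course, with a difference of -4.72 ± 0.46 at E11.5, -7.59 ± 0.55 at E12.5 and -5.91 ± 0.51 at E14.5, and lay -2.94 ± 0.52 from the mean of the other stages (adjusted p = 0.00474). Neurl3 lay -3.02 ± 0.55 from that mean, Serpine2 -2.40 ± 0.48, and Mlxipl, a glucose-responsive transcription factor gene, -3.14 ± 0.54. Their BAM levels at E12.5 were low, with means of 1.96, 5.23 and 0.488 CPM, and 1.28 CPM for Spint1. The microglia mean was highest at E12.5 for Spint1 and Neurl3. It rose later for Serpine2, from 562 CPM at E12.5 to 1185 CPM at E18.5, and for Mlxipl, from 29.8 CPM to 99.8 CPM at E16.5. The factor gene Bhlhe41 lay -1.78 ± 0.32 from the mean of the other stages, Itgal -1.65 ± 0.22, Cxcl16 -1.86 ± 0.42, Abcg1 -1.44 ± 0.31 and Ptgs1 -0.82 ± 0.18. Of the genes of this paragraph, Lair1 and Itgal kept this call whichever E12.5 library was left out. Spint1, Neurl3, Mlxipl and Bhlhe41 kept it in 4 of the 6 such fits, Serpine2 in 2, Abcg1 and Ptgs1 in 1 each and Cxcl16 in 0.

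**Figure D5:**
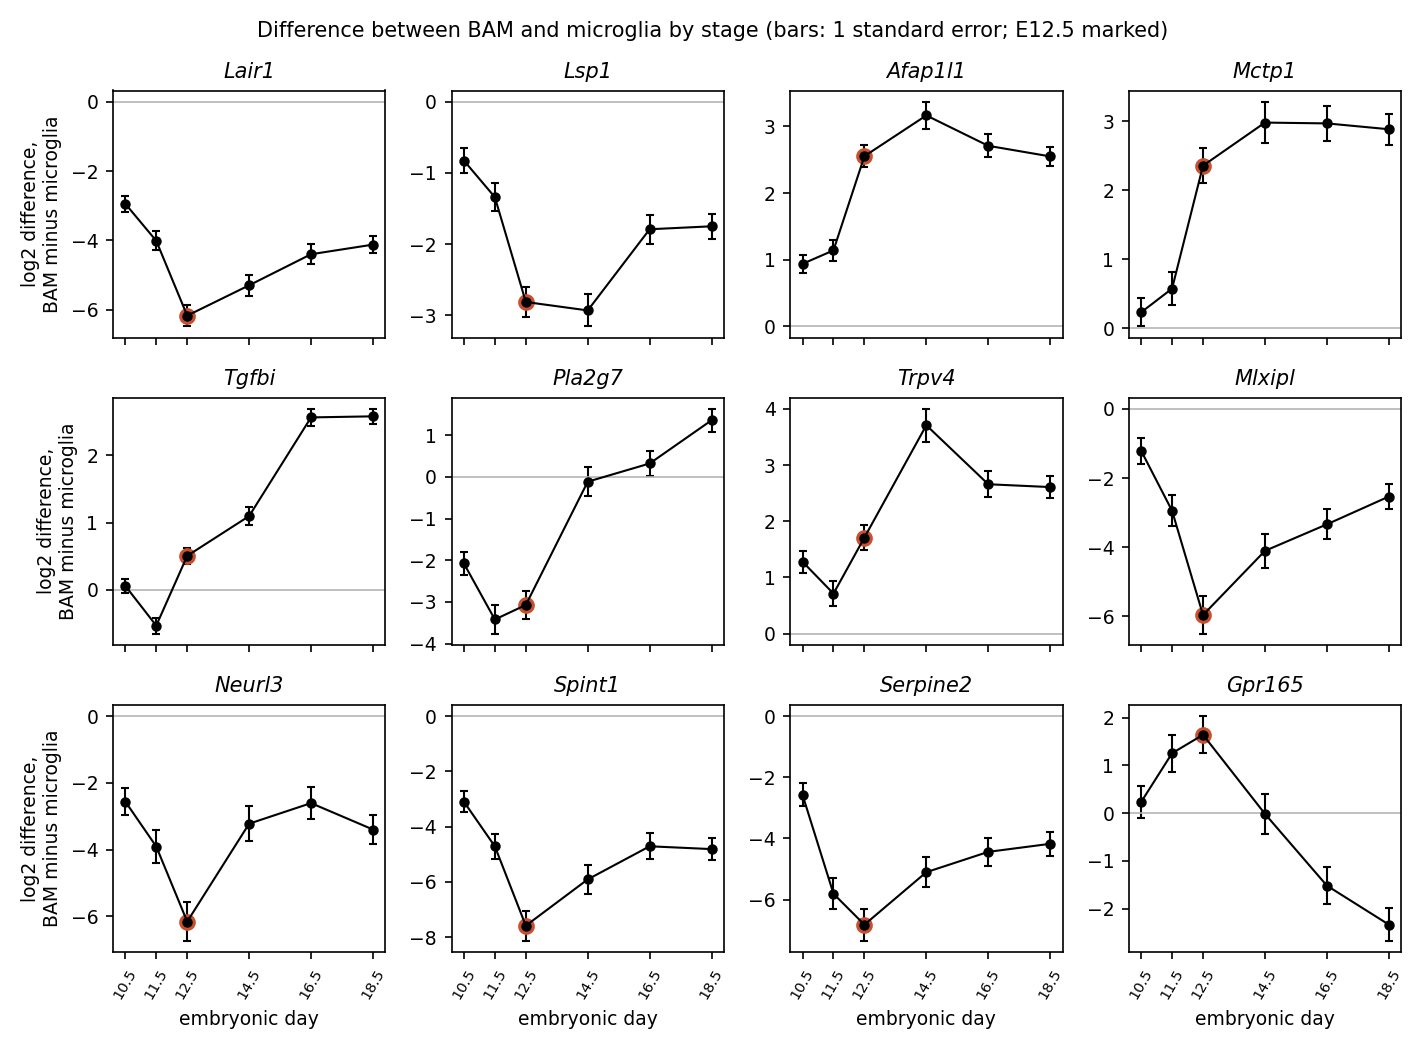
Difference between BAM and microglia (log2, with standard error) at each of the 6 stages for 12 genes whose E12.5 difference passed a test between stages; E12.5 is circled and the y axes differ between genes. Lair1 is lowest at E12.5 (-6.17), and Pla2g7 goes from -3.07 at E12.5 to -0.11 at E14.5.

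Tests against E11.5 and E14.5 alone named further genes. Pla2g7 was lower in BAM at E12.5 (-3.07 ± 0.34) and differed by -0.11 ± 0.34 at E14.5 and 1.36 ± 0.27 at E18.5. The change from E12.5 to E14.5 passed the test (-2.96 ± 0.49 for E12.5 minus E14.5, adjusted p = 0.0139) and was called in 3 of the 6 fits that left out 1 E12.5 library. Mean Pla2g7 levels in BAM (± standard deviation) were 16.8 ± 9.195, 13.7 ± 3.67, 13.5 ± 1.79, 67.98 ± 22.01, 89.8 ± 12.7 and 108 ± 18.6 CPM from E10.5 to E18.5, and in microglia 70.5 ± 27.1, 144 ± 29.5, 114 ± 24.3, 77.2 ± 15.5, 74.02 ± 14.4 and 39.1 ± 6.46 CPM. Trpv4, a cation channel gene, was 1.71 ± 0.23 at E12.5 and 3.71 ± 0.29 at E14.5 (-2.0 ± 0.34, adjusted p = 0.0153), called in 4 of the 6 such fits. Between E11.5 and E12.5 the difference grew for Afap1l1, an actin filament-associated protein gene, from 1.14 ± 0.16 to 2.55 ± 0.17, and for Mctp1, a calcium-binding membrane protein gene, from 0.57 ± 0.24 to 2.35 ± 0.25. Tgfbi, a matrix protein gene induced by TGF-beta, went from -0.54 ± 0.12 to 0.50 ± 0.12 and then to 2.58 ± 0.11 at E18.5. These 3 steps were 1.41 ± 0.23, 1.78 ± 0.34 and 1.04 ± 0.17, with adjusted p-values of 0.00571, 0.0298 and 0.00571. Lsp1, a leukocyte actin-binding protein gene, took a step of -1.47 ± 0.28 (adjusted p = 0.0298). The calls of Afap1l1 and Tgfbi were kept in all 6 fits that left out 1 E12.5 library, and those of Mctp1 and Lsp1 in 2. Aldoc, the sixth gene, had a mean of 2.75 CPM and was named after its values were seen.

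A more positive difference at E12.5 than the mean of the other 5 stages was found for 6 genes. Ighm, the immunoglobulin mu heavy chain gene, differed by -0.28 ± 0.14 at E12.5 and by -2.67 ± 0.14 at E16.5. Its mean level in BAM (± standard deviation) was 608 ± 49.3, 710.0 ± 44.9, 678 ± 27.2, 541 ± 34.2, 100.3 ± 19.3 and 62.2 ± 6.58 CPM from E10.5 to E18.5. Lpl, lipoprotein lipase, differed by 0.21 ± 0.13 and by -2.82 ± 0.12 at E18.5. Gpr165, an orphan receptor gene, differed by 1.64 ± 0.39 at E12.5 and by -2.33 ± 0.34 at E18.5. At E10.5 and E11.5 Ighm differed by -0.11 and -0.11 and Lpl by 0.25 and 0.18, close to their E12.5 values. Neither of these 2 genes was called at E12.5 in edgeR's test (adjusted p = 0.262 for Ighm and 0.456 for Lpl). Their most negative differences came at E16.5 and E18.5. Against the mean of the other 5 stages Ighm stood at 1.06 ± 0.15, Lpl at 1.04 ± 0.15 and Gpr165 at 2.12 ± 0.43, and the Ighm and Lpl calls were kept in every fit that left out 1 E12.5 library. C2cd2 (1.12 ± 0.23) and the kinase gene Tesk2 (0.89 ± 0.20) were the other named genes of this direction. The Gpr165 call was kept in 3 of the 6 such fits, that of C2cd2 in 2 and that of Tesk2 in 0, with adjusted p-values of up to 0.126, 0.208 and 0.24.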

How the data were processed

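RNA from sorted cells was turned into libraries by a SMART-seq2 protocol with paired-end sequencing, per the labels' protocols, which mark no strand. Overlapping transcripts therefore cannot be told apart. The authors deposited raw read counts per gene, made with STAR and featureCounts on GRCm38, per the submitters' processing notes; their versions and settings are not given in the sources used here. The 39 libraries fall into 12 groups by population and stage.

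Genes passing edgeR's filterByExpr (22061) were scaled by TMM and fitted with edgeR's quasi-likelihood model (edgeR 4.0.16, R 4.3.3, limma 3.58.1) over all 12 groups, and p-values were Benjamini-Hochberg adjusted over all tested genes. Members and lists were chosen with earlier results of these data known. Some genes were counted in several lists, such as Itgam and Itgb2 under both complement and integrins. Named genes were the 15 largest changes each way with a mean of at least 10 CPM, the 4 (or fewer) genes of lowest p in each list, up to 5 genes each way per test between stages, and a marker panel; some of these genes are not reported here. Alternatives were DESeq2 1.42.0, its size factors, no filter, other sets of libraries, a 2-fold threshold, a pair block and leaving out each library. The model was tested on simulated data.

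E12.5 libraries carry consecutive numbers that alternate between the populations. Deviations from the group means correlated at 0.445, 0.231 and 0.336 within the 3 pairs of neighbouring numbers and at -0.395 to 0.037 across pairs. The numbers were therefore taken as pairs for an added block. Deviations within a group cancel for each gene, so positive values within pairs push those across pairs down. The values across pairs are thus no separate evidence of pairing. No 2 replicates agreed within sampling noise, with a chi-square per degree of freedom of 33.8 to 74.6 within groups.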

Additional observations from a re-analysis of the deposited data

Results flagged for a closer look

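Each value here is a log2 difference between BAM and microglia at E12.5 minus the same difference at another stage, and each was singled out because this difference of differences passed edgeR's test at an adjusted p under 0.05. The gap of a single value from its neighbours was not tested in groups of 3 libraries.

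Against E11.5 these were Lair1 (-2.16 ± 0.36), Lsp1 (-1.47 ± 0.28), Tgfbi (1.04 ± 0.17), Mctp1 (1.78 ± 0.34) and Afap1l1 (1.41 ± 0.23). The calls of Lair1, Tgfbi and Afap1l1 were kept whichever E12.5 library was left out. Against E14.5 they were Trpv4 (-2.0 ± 0.34) and Pla2g7 (-2.96 ± 0.49).

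Against the mean of the other 5 stages, negative values were found for Mlxipl (-3.14 ± 0.54), Neurl3 (-3.02 ± 0.55), Spint1 (-2.94 ± 0.52), Serpine2 (-2.40 ± 0.48), Pla2g7 (-2.29 ± 0.35), Lair1 (-2.02 ± 0.29), Cxcl16 (-1.86 ± 0.42), Bhlhe41 (-1.78 ± 0.32), Itgal (-1.65 ± 0.22), Abcg1 (-1.44 ± 0.31), Lsp1 (-1.09 ± 0.22), Ptgs1 (-0.82 ± 0.18) and Tgfbi (-0.65 ± 0.13). Positive values were found for Gpr165 (2.12 ± 0.43), C2cd2 (1.12 ± 0.23), Ighm (1.06 ± 0.15), Lpl (1.04 ± 0.15) and Tesk2 (0.89 ± 0.20). The calls of Lair1, Itgal, Pla2g7, Lpl and Ighm against this mean were kept whichever E12.5 library was left out. A distance from this mean does not make E12.5 the extreme stage. It was the most negative stage for Lair1 and Itgal, and also for Mlxipl, Neurl3, Spint1, Serpine2, Cxcl16, Bhlhe41, Abcg1 and Ptgs1. It was not for Pla2g7, Lsp1 and Tgfbi. Pla2g7 was at -3.42 at E11.5 beside -3.07 at E12.5, and Lsp1 at -2.93 at E14.5 beside -2.81. Tgfbi rose from -0.54 at E11.5 to 0.50 at E12.5 and 2.58 at E18.5. Ighm and Lpl at E12.5 were close to their values at E10.5 and E11.5.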

How the results depend on the processing

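The 1895 genes called between BAM and microglia at E12.5 became 436 when tested against a 2-fold change, of which 31.42% were higher in BAM beside 48.13% of the 1895, and 1391 to 1778 when 1 library was left out. The replicate block of neighbouring library numbers was fitted on the 6 E12.5 libraries alone and gave 2176 called genes, beside 1553 for the same libraries without it. Fcrl1 and Cd1d1 lost their calls in both of these fits (adjusted p = 0.106 and 0.053 with the block, 0.177 and 0.085 without). Against E11.5 the 6 genes became 81 with DESeq2, 0 against a 2-fold change in edgeR (873 at an unadjusted p under 0.05), and 3 to 42 with 1 library left out. Against E14.5 the 2 genes became 1 without the filter, 17 with DESeq2, 12 in the libraries of the same number series, 0 against a 2-fold change in edgeR (420 unadjusted), and 0 to 4 with 1 library left out, where edgeR's 0 without BAM library 1 or 2 stood beside 1026 and 884 unadjusted. Against the mean of the other 5 stages the 42 genes became 113 with DESeq2, 0 against a 2-fold change in edgeR (305 unadjusted), and 14 to 33 with 1 library left out. Of 156 called named genes, 143 kept their call under every alternative other than the 2-fold threshold, 109 of the 156 kept it against that threshold, 107 kept it under both, and none of the 156 changed direction. The causes of these shifts were not tested. Genes of a few counts in one group are limited by depth.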

Other observations

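Genes called in the same direction also stood side by side on the chromosomes. Among tested genes in order of position, 28 runs of 3 or more neighbours were called the same way, 7 higher and 21 lower in BAM. The number of runs to be expected from the shares called over all tested genes was not computed. Several runs joined a coding gene with predicted genes, such as F13a1 with Gm47675 and Gm30489. One run on chromosome 7 (110768206 to 110982461, GRCm38) held Ampd3, Rnf141, Lyve1 and Mrvi1, all higher. On chromosome 17 a run from 34135182 to 34160230 held H2-DMa, H2-DMb2 and H2-DMb1, and another from 34238903 to 34287827 held H2-Ob, H2-Ab1 and H2-Aa, all lower. On chromosome 2 (129297370 to 129371139) the run of Il1a and Il1b also held the predicted gene Gm14023. Where such genes overlap, reads without strand cannot be told apart between them.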
